A study of Homo sapiens with 4 samples.

Results

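The 39 genes described here encode the cargo, the processing enzymes and the membrane machinery of dense-core granules and synaptic vesicles, the compartments from which neuroendocrine cells release peptides and transmitters. They were taken by symbol from the deposited expression table, and all 39 were present among its 16376 genes. The RNA came from LASCPC-01, a human neuroendocrine prostate cancer (NEPC) cell line that was derived from prostate epithelial cells by expressing NMYC together with activated AKT1, so all groups carry both. To examine how fluoxetine, an antidepressant that inhibits serotonin reuptake, acts on NEPC cells, RNA was sequenced from 2 samples treated with PBS, the vehicle, and from 2 samples treated with fluoxetine. The dose was 5 µM for 48 h, whereas the sample labels put all 4 samples at day 3 and give no dose. The labels give the genotype of all 4 samples as WT. In the treatment field 2 of them read fluoxetine, and their titles read PP at the same place, so grouping followed the field. All samples are of 1 cell line, and nothing stated whether the 2 libraries of a group came from separate cultures, so the p-values below measure the spread between these libraries, which may be technical.

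In a neuroendocrine cell, granins aggregate with prohormones at the trans-Golgi network and bud into dense-core granules, where prohormone convertases, carboxypeptidase E and the amidating enzyme PAM convert the cargo into active peptides. Small synaptic vesicles carry classical transmitters instead. Both kinds are guided by Rab GTPases, primed by the UNC13 and CAPS proteins, and fused with the plasma membrane by SNARE proteins when a synaptotagmin binds calcium. Chromogranin A (CHGA) and synaptophysin (SYP) are the proteins most used in pathology to recognise neuroendocrine tumours.

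The promoters of 5 members are shown. They are the 4 that hold the element described next, all of them low in level, and RAB3A, a highly expressed member. They were chosen for the motifs they hold, and after the levels given below were seen. The cAMP response element (CRE), the 8-base palindrome TGACGTCA to which CREB family factors bind, was searched on both strands in the 250 bases before the start site, in the RefSeq promoters of build GRCh38.p14. A RefSeq promoter was matched for 30 of the 39 members and for 12964 genes of the table. The CRE was found in 4 of the 30 members (13.3%) and in 2.59% of all 12964 promoters. The 4 members were CHGA (chr14:92922900-92923109, plus strand), the granin gene VGF (chr7:101165570-101165819, minus strand), the prohormone convertase gene PCSK1 (chr5:96433251-96433498, minus strand) and the synapsin gene SYN1 (chrX:47619914-47620107, minus strand), all with a mean level under 0.1 FPKM. Its first base lay 54, 79, 77 and 159 bases before the start, in that order. Capitals mark the CRE, and each stretch ends after at most 30 bases of a GENCODE 29 exon. In CHGA the CRE lies within these exon bases, since GENCODE 29 starts the gene further upstream than RefSeq does.
CHGA: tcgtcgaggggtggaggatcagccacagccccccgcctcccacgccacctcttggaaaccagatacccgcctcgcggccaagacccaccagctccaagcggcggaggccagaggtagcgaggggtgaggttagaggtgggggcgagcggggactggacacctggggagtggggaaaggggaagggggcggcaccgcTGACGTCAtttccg
VGF: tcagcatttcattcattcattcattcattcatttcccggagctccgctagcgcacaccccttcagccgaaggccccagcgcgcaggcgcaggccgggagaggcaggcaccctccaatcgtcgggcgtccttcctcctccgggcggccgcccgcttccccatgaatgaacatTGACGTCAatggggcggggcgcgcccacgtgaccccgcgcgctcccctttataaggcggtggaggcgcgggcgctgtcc
PCSK1: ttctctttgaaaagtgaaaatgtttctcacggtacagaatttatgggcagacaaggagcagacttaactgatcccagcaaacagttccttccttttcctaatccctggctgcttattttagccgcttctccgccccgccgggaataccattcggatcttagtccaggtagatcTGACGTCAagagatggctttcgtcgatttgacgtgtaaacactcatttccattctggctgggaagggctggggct
SYN1: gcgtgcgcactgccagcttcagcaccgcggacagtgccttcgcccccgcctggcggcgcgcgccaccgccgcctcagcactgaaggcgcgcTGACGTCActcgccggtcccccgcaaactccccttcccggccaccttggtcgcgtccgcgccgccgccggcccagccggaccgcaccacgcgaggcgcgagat

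Beside them, RAB3A (chr19:18204045-18204292, minus strand), among the most expressed members, held no CRE, although it held the 5-base TGACG that every CRE contains. It also held 3 GC boxes, the 6-base GGGCGG to which SP family factors bind, here read as its reverse complement CCGCCC and marked in capitals. CHGA, VGF and PCSK1 held a GC box too, which is left unmarked above.
RAB3A: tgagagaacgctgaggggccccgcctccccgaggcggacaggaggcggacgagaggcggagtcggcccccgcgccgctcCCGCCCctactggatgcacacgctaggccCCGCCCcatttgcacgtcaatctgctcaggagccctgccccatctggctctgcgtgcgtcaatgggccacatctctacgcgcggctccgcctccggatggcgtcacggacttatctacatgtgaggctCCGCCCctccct

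The GC box was found in 19 of the 30 member promoters (63.3%) and in 62.6% of all promoters. It was in 8 of the 9 promoters of members with a mean of at least 1 FPKM (88.9%, against 69.4% of all genes at that level) and in 6 of the 15 of members under 0.1 FPKM (40%, against 44.6%). The CRE was in 4 of these 15 (26.7%, against 1.44% of all genes under 0.1 FPKM) and in 0 of the 9. The 5-base TGACG, which every CRE contains, was in 15 of the 30 (50%, against 27.5%). The TATA box TATAAA was in 1 (3.33%, against 6.97%). The median GC content was 61.8% in the members and 64% in all promoters. These matches describe letters in a window and are not evidence of binding.

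The values were FPKM, read-pair counts corrected for gene length and for sequencing depth, so levels can be set side by side between genes. The depths by which the authors divided, recovered from the steps between FPKM values, were 32873603 and 34756748 fragments for PBS and 34806710 and 34831389 for fluoxetine. In a gene of 1 kb, 1 read was worth 0.0287 to 0.0304 FPKM. Libraries of a group correlated across genes with Pearson's r of 0.993 for PBS and 0.994 for fluoxetine, with genes not being independent replicates. Fluoxetine replicate 1 stood apart in gene length: its deviation from the mean of the 4 libraries correlated across genes with log2 length at r = -0.28, against 0.055 and 0.19 for PBS and 0.046 for fluoxetine replicate 2.

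The line expressed most of the neuroendocrine identity genes examined. Of 9 such genes, 6 had a mean of at least 1 FPKM. Among the 6 was MYCN, the gene of NMYC, which was expressed to make the line, so its level is no evidence of identity. UCHL1, a neuronal ubiquitin hydrolase, ranged from 434 to 513 FPKM, the driver MYCN from 323 to 387, the Notch ligand DLL3 from 177 to 201, the adhesion molecule NCAM1 from 44.3 to 52.0, and INSM1, a zinc finger factor of neuroendocrine cells, from 21.7 to 24.2. FOXA2 (0 to 0.0209 FPKM), NEUROD1 (0.0230 to 0.0923 FPKM) and NKX2-1 (0.109 to 0.460 FPKM) were low. The summed level of the 9 genes was 1104 and 1075 FPKM for PBS and 1106 and 1079 for fluoxetine, and the groups overlapped. This sum is carried by UCHL1, MYCN and DLL3. Of the 7 identity genes tested as described below, 3 had both fluoxetine libraries below both PBS libraries (42.9%, against 24.8% of all genes tested) and 0 above. MYCN measured 370 and 387 FPKM in PBS and 323 and 364 in fluoxetine, NCAM1 52.0 and 51.2 against 44.3 and 47.1, and ENO2, neuron-specific enolase, 2.76 and 3.10 against 2.07 and 2.10. None of the 7 passed adjustment, although NCAM1 (log2 fold change -0.18 ± 0.072, limma adjusted p = 0.541) and ENO2 (-0.47 ± 0.14, limma adjusted p = 0.373) had an unadjusted p under 0.05. Among 9 luminal prostate genes, KLK3, which encodes PSA, stayed between 0.0302 and 0.256 FPKM, while TMPRSS2 was at 13.5 to 14.8 FPKM. Their sum was 27.8 and 25.6 FPKM for PBS and 26.4 and 26.8 for fluoxetine. STEAP2, the lowest of the list at a mean of 0.0016 FPKM, was at 0 in both fluoxetine libraries, a level too low to compare. Lists of 6 stroma and 6 immune markers served as a check on other cells. The stroma list summed to 2.85 and 3.14 FPKM for PBS and 1.98 and 2.84 for fluoxetine, nearly all of it COL1A1. PDGFRB, the lowest of that list at a mean of 0.0025 FPKM, was at 0 in both PBS libraries, again too low to compare. The immune list summed to 2.97 and 4.07 FPKM for PBS and 3.77 and 2.76 for fluoxetine, nearly all of it CD68, with PTPRC at or below 0.0318 FPKM in every library. The part of the stroma sum in the results below was not tested.

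Against this background most of the release genes were barely expressed. The median of the members' mean level was 0.0587 FPKM, against 4.13 FPKM over all genes of the table. Of the 39 members, 21 had a mean under 0.1 FPKM (53.8%, against 22.7% of all genes), 7 lay between 0.1 and 1 FPKM, and 11 reached at least 1 FPKM (28.2%, against 64.6%). The 11 were PAM, RAB3A, VAMP2, RAB3B, CADPS2, STX1A, UNC13B, CPE, SYN2, RAB3D and SYT7, in descending order on the authors' gene lengths. The libraries of PAM, RAB3A and VAMP2 did not overlap with those of the next gene in this order, nor did those of CADPS2, STX1A and SYN2. RAB3B overlapped with CADPS2, UNC13B with CPE, CPE with SYN2, and RAB3D with SYT7. In these bulk samples, fewer cells expressing a gene and less RNA per cell cannot be told apart.

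**Figure D1:**
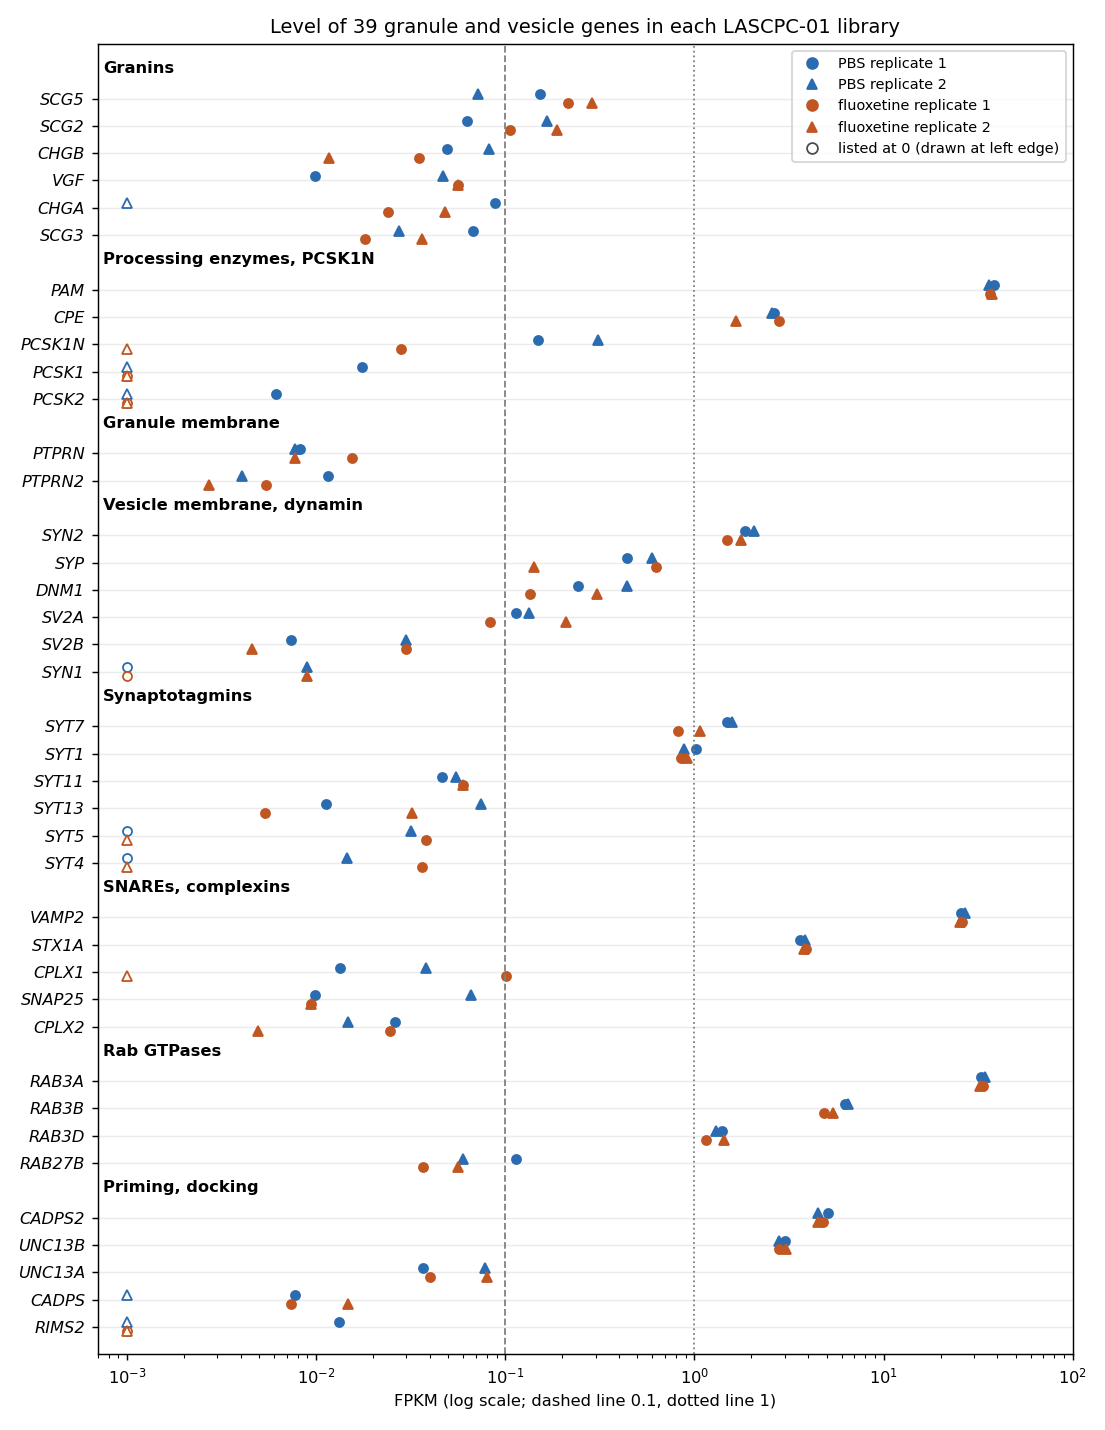
FPKM of the 39 genes in each of the 4 libraries on a log scale, grouped by role, with a dashed line at 0.1 and a dotted line at 1 and values listed at 0 drawn as open symbols at the left edge. PAM, RAB3A and VAMP2 lie at 25.4 or more in every library, whereas all 6 granins lie at 0.288 or less.

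Fluoxetine was compared with PBS by limma, on log2 values with 0.1 added to each FPKM, in 12663 genes whose mean reached 0.1 FPKM, of which 18 are members. A log2 fold change below 0 means a lower value under fluoxetine, and on this scale the change of low genes is understated. None of the members was called: limma gave 0 of 18 an adjusted p under 0.05 (Benjamini-Hochberg over all genes tested), whereas it called 30 of 12663 genes (0.237%), 27 lower (0.213%) and 3 higher (0.0237%) under fluoxetine. An unadjusted p under 0.05 was found for 3 members, SYT7, PCSK1N and RAB3B, all lower, and for 1078 of all genes (8.51%). Of these, PCSK1N passed the filter only through its PBS libraries, so its place in this and the next count was favoured by the filter. Both fluoxetine libraries lay below both PBS libraries in 4 of the 18 members (22.2%), SYN2, SYT7, PCSK1N and RAB3B, against 24.8% of all genes tested, and above them in 1 (5.56%), SCG5, against 16.7%. The groups of the other 13 members overlapped. The log2 fold change was below 0 in 13 members and above 0 in 5, with a median of -0.051, against -0.021 over all genes tested. With limma voom on the reads recovered from the FPKM, 1 of 32 members was called, SYT7, against 51 of 14043 genes (0.363%). For a gene on its own, an exact permutation test of 2 libraries against 2 cannot go below a 2-sided p = 0.333.

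**Figure D2:**
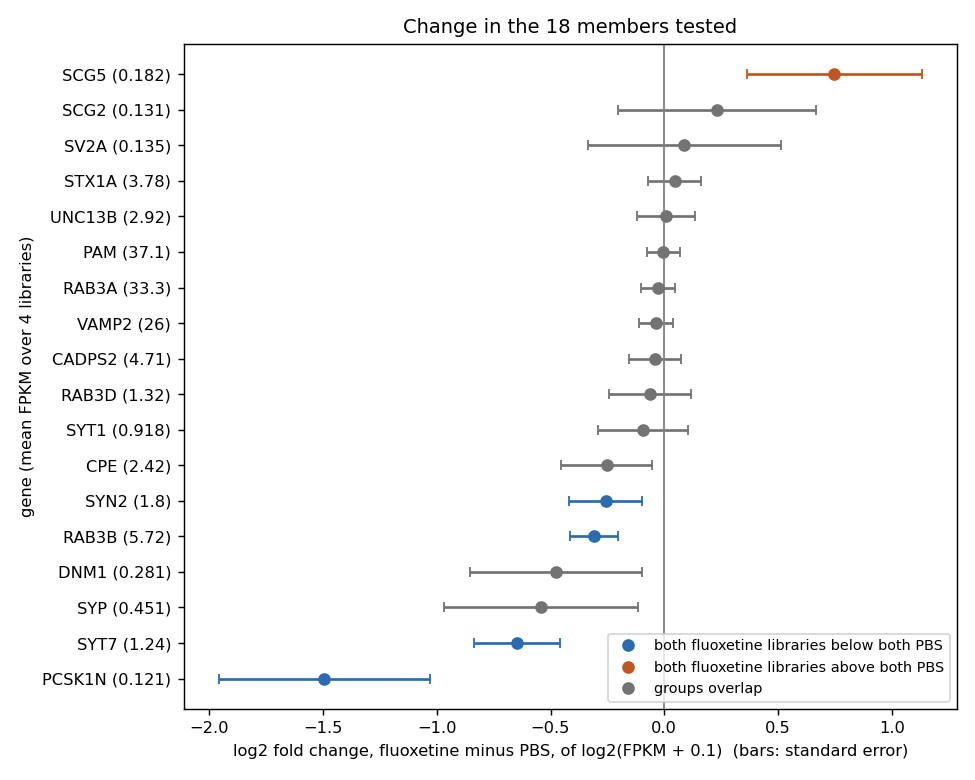
The log2 fold change (fluoxetine minus PBS, of log2(FPKM + 0.1)) of the 18 members tested, with standard errors from limma as bars and the mean FPKM beside each name. SYT7, PCSK1N, RAB3B and SYN2 (blue) have both fluoxetine libraries below both PBS libraries, SCG5 (orange) above, and the other 13 (grey) overlap.

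The granins, the acidic proteins that form the granule core, were at or near the limit of detection. All 6 together took 30 and 32 reads in PBS and 31 and 43 in fluoxetine, or 0.913, 0.921, 0.891 and 1.23 reads per 1000000 fragments of depth. The exact 95% binomial intervals of these rates were 0.616 to 1.30, 0.630 to 1.30, 0.605 to 1.26 and 0.893 to 1.66, and they overlapped throughout. These intervals, like all read intervals here, cover counting error only. Each read number is the lowest whole number that fits the deposited values. CHGA had 7 and 0 reads in PBS and 2 and 4 in fluoxetine. Chromogranin B (CHGB) had 4 and 7 against 3 and 1. SCG3, which binds granins to the granule membrane, had 7 and 3 against 2 and 4, and VGF, the source of several neuropeptides, had 1 and 5 against 6 and 6. For CHGA, the 0 reads of PBS replicate 2 allow a level of up to 0.0359 FPKM (3 reads), or 0.0441 FPKM by the upper end of the exact 95% Poisson interval.

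SCG5 (chr15:32641676-32697098 in GENCODE 29), which encodes the chaperone 7B2 of the convertase PCSK2, had the highest mean of the granins over the 4 libraries, although SCG2 was the higher of the pair in PBS replicate 2. It measured 0.152 and 0.0720 FPKM in PBS and 0.216 and 0.288 in fluoxetine, from 6, 3, 9 and 12 reads. The fluoxetine values were both above the PBS values, but a log2 fold change of 0.75 ± 0.39 (SE) was not significant (limma adjusted p = 0.603). SCG2, the precursor of secretoneurin, measured 0.0625 and 0.165 FPKM in PBS and 0.106 and 0.189 in fluoxetine. Its groups overlapped, with a log2 fold change of 0.23 ± 0.44 (limma adjusted p = 0.892). SCG5 overlaps an antisense gene on the other strand, and whether the counting used strand is not given in the sources used here.

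The enzymes that act on granule cargo spread from the top of the range to its floor. PAM (chr5:102753981-103031105), which amidates the C-terminus of peptide hormones, was the most expressed member on the authors' gene lengths. It measured 38.4 and 36.0 FPKM in PBS and 36.7 and 37.5 in fluoxetine. This was above 88.8% of all genes, and both fluoxetine values lay between the PBS values (log2 fold change -0.0042 ± 0.073, limma adjusted p = 0.993). CPE (chr4:165361194-165498320), the carboxypeptidase that trims cut prohormones, measured 2.63 and 2.59 FPKM in PBS and 2.82 and 1.67 in fluoxetine. Fluoxetine replicate 1 was the highest and fluoxetine replicate 2 the lowest of the 4 libraries, with 253 reads (95% interval 223 to 286) and 150 reads (127 to 176). For CPE the log2 fold change was -0.25 ± 0.20 (limma adjusted p = 0.705), and without fluoxetine replicate 2 it was 0.11.

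The prohormone convertases themselves were almost absent from the reads. PCSK1 and PCSK2, the endoproteases that cut prohormones inside granules, had 1 read each in PBS replicate 1 and 0 in the other 3 libraries. For PCSK2, 0 reads in PBS replicate 2 allow a level of up to 0.0174 FPKM (3 reads), or 0.0214 FPKM by the upper end of the exact 95% Poisson interval. The length implied by PCSK1's values was 1738 bases, against 5307 bases of exons in GENCODE 29, so its read may stand for a multiple. PCSK1N (chrX:48831094-48835633), which encodes proSAAS, an inhibitor of PCSK1, measured 0.148 and 0.309 FPKM in PBS and 0.0280 and 0 in fluoxetine. The fluoxetine values were both below the PBS values, on 5, 11, 1 and 0 reads. On the log2 scale PCSK1N differed by -1.49 ± 0.46 (limma adjusted p = 0.412), and the ratio of fluoxetine to PBS reads per depth was 0.0607, with an exact 95% interval of 0.00145 to 0.391. That interval pools the libraries of each group and covers counting error only, not the spread between libraries. With its PBS mean at 0.229 FPKM, PCSK1N passed the filter only through the PBS group, so neither the ratio nor its interval is a test of the groups.

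Genes of the granule membrane proper were close to 0. PTPRN and PTPRN2, which encode the transmembrane granule proteins IA-2 and phogrin, had 1 to 2 and 2 to 8 reads per library. Their highest FPKM in any library were 0.0155 and 0.0115, and the groups overlapped in both.

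Among genes of the synaptic vesicle membrane, SYN2 (chr3:12004402-12191400), a synapsin that tethers vesicles to the cytoskeleton, was the only one with a mean of at least 1 FPKM. SYN2 measured 1.86 and 2.07 FPKM in PBS and 1.49 and 1.77 in fluoxetine, from 369, 435, 313 and 373 reads. Fluoxetine gave the lower values, by a log2 fold change of -0.26 ± 0.16 that was not significant (limma adjusted p = 0.632). SYN2 overlaps TIMP4 on the other strand. Its relative SYN1 had 0, 1, 0 and 1 reads.

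SYP, the marker protein of small vesicles, measured 0.440 and 0.594 FPKM in PBS and 0.629 and 0.142 in fluoxetine. The fluoxetine libraries were the highest and the lowest of the 4. Their 53 and 12 reads have intervals of 39.7 to 69.3 and 6.20 to 21.0, so the fluoxetine libraries differed from each other by more than counting error. Fluoxetine replicate 2 was the lowest library by far and set the log2 fold change of -0.54 ± 0.43 (limma adjusted p = 0.706), since fluoxetine replicate 1 was above both PBS libraries. DNM1, the neuronal dynamin that pinches off vesicles during retrieval, measured 0.241 and 0.442 FPKM in PBS and 0.135 and 0.306 in fluoxetine, with overlapping groups (log2 fold change -0.48 ± 0.38, limma adjusted p = 0.708). DNM1 has pseudogene copies and overlaps CIZ1 on the other strand, so its values are uncertain. SV2A, a vesicle glycoprotein and the target of levetiracetam, measured 0.115 and 0.134 FPKM against 0.0828 and 0.210, also overlapping (log2 fold change 0.087 ± 0.42). SV2B had 3 and 13 reads in PBS and 13 and 2 in fluoxetine.

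SYT7 (chr11:61515313-61581148, minus strand), the high-affinity calcium sensor of slow and asynchronous release, was the member with the clearest difference between the groups. It measured 1.48 and 1.58 FPKM in PBS and 0.816 and 1.08 FPKM in fluoxetine, from 615, 692, 359 and 474 reads. Both fluoxetine libraries lay below both PBS libraries, and the read intervals of the groups, 567 to 746 at their widest for PBS and 323 to 519 for fluoxetine, were apart. The group means were 1.53 ± 0.0672 FPKM (SD, n = 2) in PBS and 0.946 ± 0.184 FPKM (SD, n = 2) in fluoxetine, a 1.61-fold lower level. SYT7 had a log2 fold change of -0.65 ± 0.19, which did not pass adjustment (limma adjusted p = 0.379). With limma voom on the reads it was -0.70 ± 0.14 and passed (adjusted p = 0.00652), while over all alternatives the adjusted p ran from 0.00652 to 0.989. The values of SYT7 imply a length of 12640 bases, against 5953 bases of GENCODE 29 exons, so the authors' gene model differs from that annotation and its read numbers rest on the implied length. SYT7 also overlaps the lincRNA gene AP003559.1 on the same strand. It was lowest in fluoxetine replicate 1, the library in which long genes were lower. With each library's length trend removed, the log2 fold change was -0.52 (limma adjusted p = 0.539), and without fluoxetine replicate 1 it was -0.47 (limma adjusted p = 0.900).

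Of the other synaptotagmins, only SYT1 reached the mean of 0.1 FPKM set for limma, and none was called with voom. SYT1, the calcium sensor of fast synchronous release, measured 1.02 and 0.883 FPKM in PBS and 0.849 and 0.919 in fluoxetine, and the groups overlapped (log2 fold change -0.093 ± 0.20, limma adjusted p = 0.908). SYT4, SYT5, SYT11 and SYT13 had 0 to 14 reads per library. SYT11 was the steadiest of these, with 8 and 10 reads in PBS and 11 and 11 in fluoxetine.

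**Figure D3:**
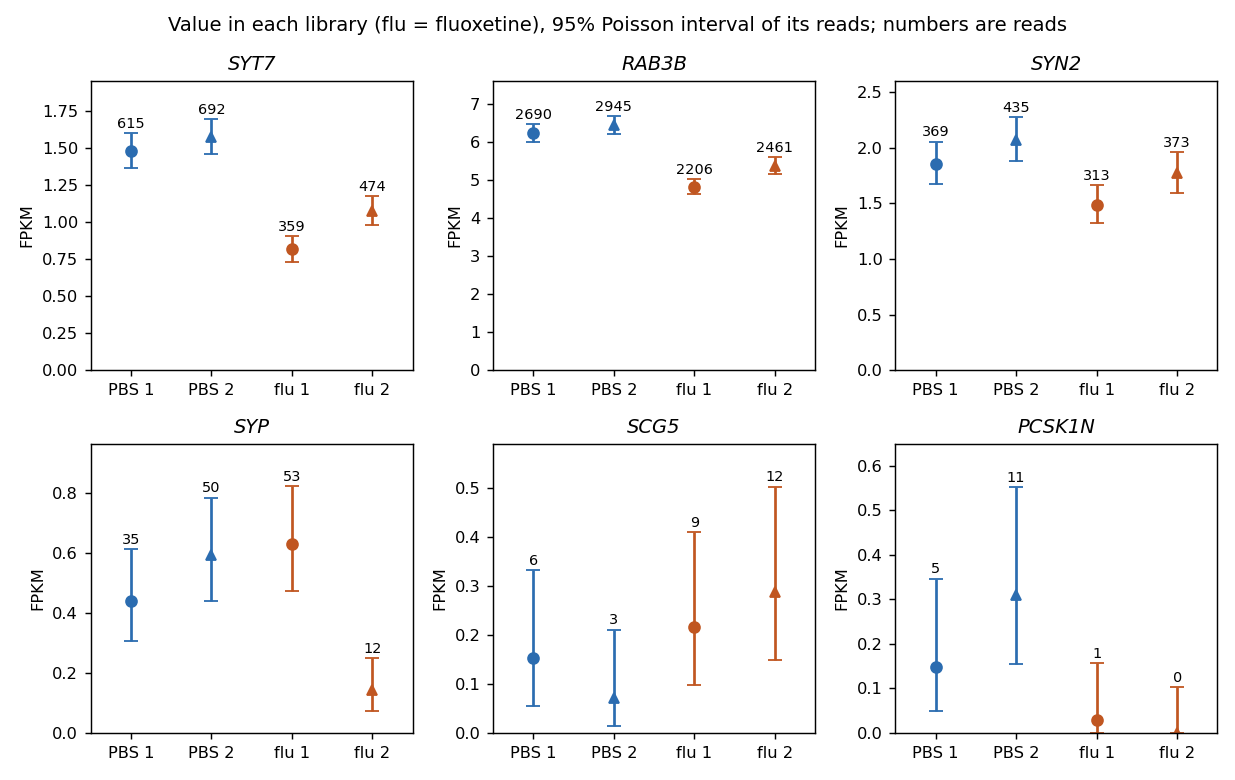
FPKM in each library of 6 members, with the exact 95% Poisson interval of the reads as bars and the number of reads printed above. SYT7, RAB3B and SYN2 show both fluoxetine libraries below both PBS libraries, SYP differs mostly between the fluoxetine libraries (53 and 12 reads), and SCG5 and PCSK1N rest on at most 12 reads a library.

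Of the genes for the SNARE proteins that drive fusion, VAMP2 lay above 83.8% of all genes and STX1A above 48.6%, while SNAP25 was barely detected. VAMP2 (chr17:8159149-8163546), the vesicle SNARE, measured 25.6 and 27.0 FPKM in PBS and 25.9 and 25.4 in fluoxetine. The groups overlapped, with a log2 fold change of -0.038 ± 0.075 (limma adjusted p = 0.900). STX1A (chr7:73699206-73719672), the plasma membrane syntaxin, measured 3.60 and 3.84 FPKM in PBS and 3.90 and 3.78 in fluoxetine, again overlapping (0.045 ± 0.12 on the log2 scale, limma adjusted p = 0.931). SNAP25, the partner of STX1A at the plasma membrane, had 1 and 7 reads in PBS and 1 and 1 in fluoxetine. The complexins, which clamp and then assist the assembled SNARE complex, were as low: CPLX1 had 1, 3, 8 and 0 reads and CPLX2 had 5, 3, 5 and 1. VAMP2 overlaps another gene model on its own strand, and STX1A overlaps BUD23 on the opposite strand.

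Rab GTPases recruit effectors to the vesicle surface, and all 3 RAB3 genes reached a mean of at least 1 FPKM. RAB3A (chr19:18196784-18204074), whose promoter is printed above, measured 32.7 and 34.6 FPKM in PBS and 33.7 and 32.3 in fluoxetine, above 87.4% of all genes. Its groups overlapped (log2 fold change -0.028 ± 0.074, limma adjusted p = 0.935). RAB3D (chr19:11322046-11346270), a RAB3 of exocrine and endocrine granules, measured 1.40 and 1.30 FPKM in PBS and 1.15 and 1.44 in fluoxetine and also overlapped (-0.062 ± 0.18 on the log2 scale, limma adjusted p = 0.943). The RAB3D gene overlaps TMEM205 on its own strand and CCDC159 on the opposite strand, and RAB3A overlaps MPV17L2 on the opposite strand.

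RAB3B (chr1:51907956-51990764), a RAB3 found in secretory epithelia and pituitary cells, measured 6.23 and 6.45 FPKM in PBS and 4.82 and 5.38 in fluoxetine, from 2690, 2945, 2206 and 2461 reads. Each fluoxetine library was below each PBS library, and the mean was 1.24-fold lower. RAB3B had a log2 fold change of -0.31 ± 0.11, which did not pass adjustment (limma adjusted p = 0.488, or 0.110 with voom on the reads). RAB3B is long as well, with an implied 13142 bases, and with the length trend removed its log2 fold change was -0.18 (limma adjusted p = 0.650). Of the summed FPKM of the 3 RAB3 genes, RAB3A held 81.1% and 81.7% in PBS and 84.9% and 82.6% in fluoxetine, RAB3B 15.4% and 15.2% against 12.2% and 13.7%, and RAB3D 2.89% to 3.69%. RAB27B, a Rab that docks granules, had 38 and 21 reads in PBS and 13 and 20 in fluoxetine, or 0.114, 0.0595, 0.0368 and 0.0565 FPKM. The fluoxetine values were both lower, though the libraries with 21 and 20 reads differed by less than counting error.

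Priming factors make docked vesicles ready to fuse, and here each expressed factor had a near-silent relative. CADPS2 (chr7:122318425-122886759), a CAPS protein of dense-core granules, measured 5.07 and 4.49 FPKM in PBS and 4.77 and 4.50 in fluoxetine. UNC13B (chr9:35161992-35405338), also called Munc13-2, measured 3.02 and 2.80 FPKM in PBS and 2.81 and 3.05 in fluoxetine. The groups of both overlapped, with log2 fold changes of -0.041 ± 0.11 and 0.0077 ± 0.13 (limma adjusted p = 0.938 and 0.992). UNC13A had 12 and 27 reads in PBS and 14 and 28 in fluoxetine, CADPS had 1, 0, 1 and 2, and RIMS2, an active zone scaffold, had 5 reads in PBS replicate 1 and 0 elsewhere. CADPS implies a length of 3914 bases against 14638 bases of GENCODE 29 exons, so its reads may stand for multiples.

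Several members with low values had a related gene at a far higher level in all 4 libraries. The pairs were chosen after the values were seen and are a description. SNAP25 lay between 0.00936 and 0.0656 FPKM, and SNAP23, its relative outside neurons, between 8.86 and 10.1. RAB27B lay between 0.0368 and 0.114 FPKM and RAB27A between 14.4 and 15.9. DNM1 lay between 0.135 and 0.442 FPKM and DNM2, the dynamin of most tissues, between 52.9 and 58.3. The same order held for CADPS (at most 0.0147 FPKM) and CADPS2 (at least 4.49), UNC13A (at most 0.0804) and UNC13B (at least 2.80), SYN1 (at most 0.00896) and SYN2 (at least 1.49), and SYP (at most 0.629) and SYPL1 (at least 24.3). PCSK1 (at most 0.0175 FPKM) stood beside FURIN, the convertase of the trans-Golgi network, at 83.2 to 90.3 FPKM. CPE went the other way and lay above its relative CPD in 4 of 4 libraries, and SYT7 lay above SYT1 in 3 of 4.

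**Figure D4:**
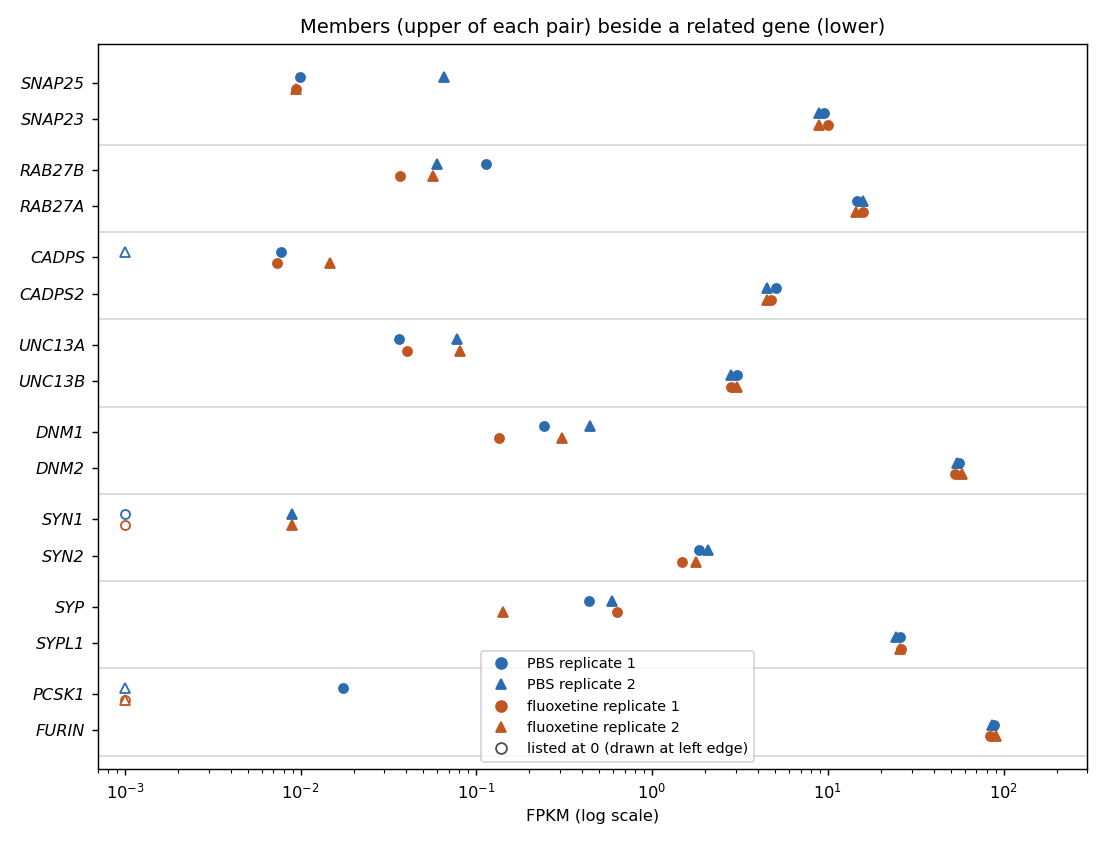
FPKM of 8 members and of a related gene below each, in the 4 libraries on a log scale, with values listed at 0 as open symbols at the left edge. In every pair the related gene is above the member in 4 of 4 libraries, for instance SNAP23 at 8.86 to 10.1 against SNAP25 at 0.00936 to 0.0656.

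The 21 members under 0.1 FPKM together took 106 and 125 reads in PBS and 97 and 90 in fluoxetine. The fluoxetine sums were both lower, with rates of 3.22 and 3.60 reads per 1000000 fragments in PBS and 2.79 and 2.58 in fluoxetine. Each library's exact 95% binomial interval, 2.64 to 3.90 and 2.99 to 4.28 for PBS and 2.26 to 3.40 and 2.08 to 3.18 for fluoxetine, overlapped with those of the other libraries, which is not a test of the groups. RAB27B and UNC13A took the most reads of the 21. RAB27B had 38 and 21 in PBS and 13 and 20 in fluoxetine, and UNC13A had 12 and 27 against 14 and 28. The sums are therefore not a fall shared by all 21.

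A wider list of 95 genes for vesicle biogenesis, docking and fusion, of which 87 were in the table and 62 tested, held no gene past the threshold. Limma called 0 of 62 (against 0.237% of all genes tested), with 4 at an unadjusted p under 0.05 (against 8.51%), and voom also called 0 (against 0.363%). Of the 62, the log2 fold change was above 0 in 27 and below 0 in 35, with a median of -0.0096. The groups did not overlap in 16 that were lower under fluoxetine (25.8%, against 24.8% of all genes tested) and in 9 that were higher (14.5%, against 16.7%). The smallest p-values were those of SYN3, a synapsin (log2 fold change -0.34 ± 0.11, limma adjusted p = 0.478), ARFIP2, a BAR domain protein of granule budding (0.20 ± 0.069, adjusted p = 0.488), and HID1, a trans-Golgi protein needed for granule formation (-0.50 ± 0.20, adjusted p = 0.541). The highest levels belonged to general trafficking genes: SYNGR2, a synaptogyrin found outside neurons, at 182, 169, 202 and 190 FPKM, VAMP8, an endosomal and secretory SNARE, at 101, 86.9, 115 and 98.6, and FURIN at 88.5, 85.8, 83.2 and 90.3, in the order PBS 1, PBS 2, fluoxetine 1 and fluoxetine 2. SYNGR2 was higher in both fluoxetine libraries, and the groups overlapped for the other two.

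The peptides that such granules could carry were examined with a list of 57 precursor genes, of which 36 were in the table and 14 tested. GAL, the precursor of galanin, was the highest, at 23.3 and 21.2 FPKM in PBS and 24.2 and 19.1 in fluoxetine. NMU, the precursor of neuromedin U, measured 18.8 and 16.1 FPKM against 21.5 and 18.5, and EDN2, the precursor of endothelin 2, measured 7.96 and 5.72 against 6.70 and 4.67. The groups overlapped in all of them, and NMU, which had one of the 3 smallest p-values of the list, had a log2 fold change of 0.19 ± 0.099 (limma adjusted p = 0.603). NPY, TAC1, POMC, CARTPT, OXT and GIP were listed at 0 in all 4 libraries.

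ADM, the precursor of the vasodilator adrenomedullin, measured 6.54 and 6.33 FPKM in PBS and 4.47 and 3.96 in fluoxetine, from 321, 328, 232 and 206 reads. The fluoxetine libraries were both below the PBS libraries, and their read numbers were apart. ADM had a log2 fold change of -0.60 ± 0.11, just outside the threshold (limma adjusted p = 0.0511). Over the alternatives its adjusted p ran from 0.0143 to 0.687, and it was 0.0479 after rescaling to TPM and 0.188 with voom on the reads. TAC4, a tachykinin precursor, measured 0.315 and 0.170 FPKM against 0.0851 and 0, on 7, 4, 2 and 0 reads (log2 fold change -1.30 ± 0.46, limma adjusted p = 0.514). TAC4 passed the filter only through the PBS group, with means of 0.243 FPKM in PBS and 0.0426 in fluoxetine. Limma called 0 of the 14 tested cargo genes (against 0.237% of all genes tested), with ADM and TAC4 at an unadjusted p under 0.05 (against 8.51%), and voom called 0 (against 0.363%). The median log2 fold change was -0.15, with 5 above 0 and 9 below.

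**Figure D5:**
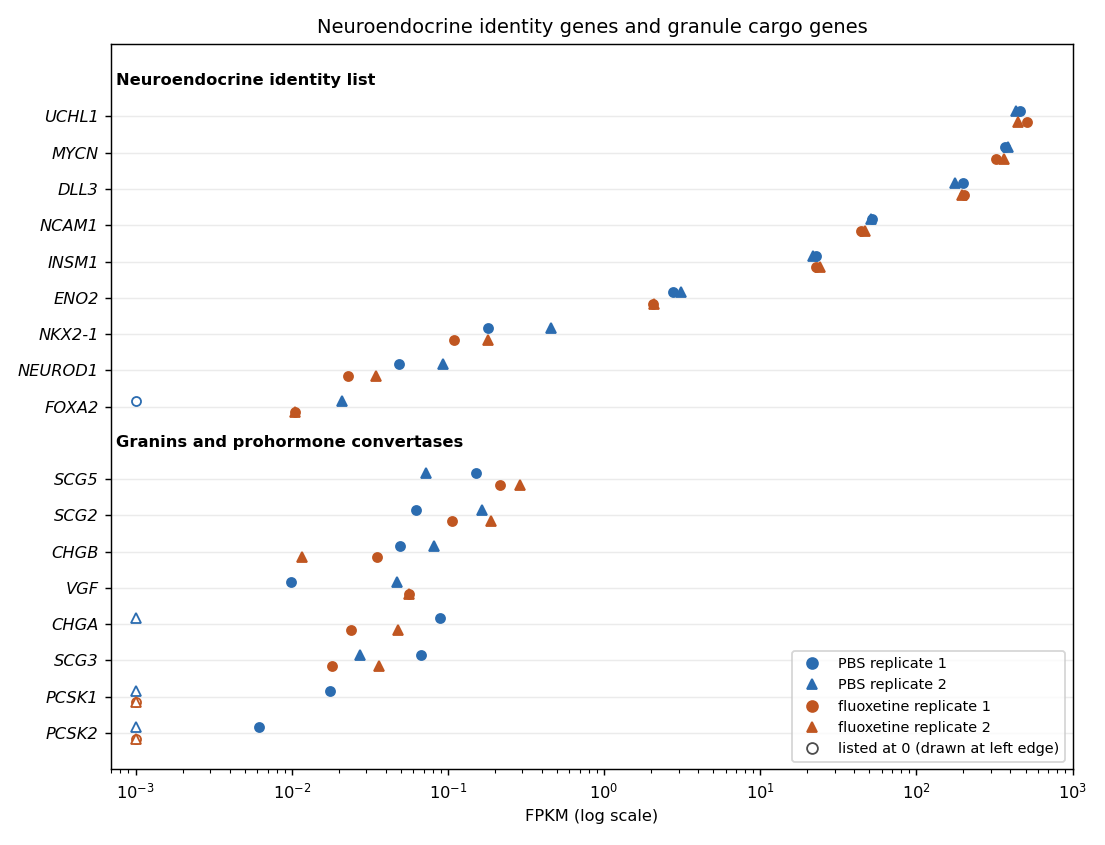
FPKM of 9 neuroendocrine identity genes and of 8 granin and prohormone convertase genes in the 4 libraries, on a log scale, with values listed at 0 as open symbols at the left edge. UCHL1, MYCN and DLL3 lie at 177 or more in every library, whereas all 8 granin and convertase genes lie at 0.288 or less.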

How the data were processed

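RNA of LASCPC-01 cells was sequenced as paired-end reads after treatment with PBS (2 libraries) or fluoxetine (2 libraries). The labels name a stranded TruSeq kit and the methods a VAHTS kit. The authors deposited FPKM, that is, fragments on each of 16376 genes scaled for length and library depth. Per the submitters' processing notes, fastp, HISAT2, HTSeq and GRCh38 were used, with no versions. The annotation and the strand setting are not given in the sources used here.

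Samples were grouped by their treatment labels. Group differences were fitted with limma (version 3.58.1, under R version 4.3.3), using lmFit followed by eBayes with its variance trend, after adding a pseudocount of 0.1 to the FPKM and taking log2. The 12663 genes whose mean reached 0.1 FPKM were tested, with Benjamini-Hochberg adjustment and a threshold of 0.05. Read numbers were solved as the smallest whole numbers, within 0.004 of a read, whose ratios between libraries matched those of the FPKM and which gave a gene length of whole bases. The depth was the value shared by 87 genes when GENCODE 29 exon lengths were used, and the next value was shared by 8. This solved 16006 of the 16080 genes above 0 (99.5%), and 74 highly expressed genes were left unsolved. Intervals of reads are exact 95% Poisson intervals, except those of summed reads and of the PCSK1N ratio, which are exact 95% binomial intervals. As the limit that 0 reads allow, 3 reads were taken, which is below the 3.69 reads at which the Poisson interval ends. Fits and read recovery were tested on simulated data. The genes changed there all had a mean of at least 1 FPKM, and their changes were larger than that of SYT7. The simulation therefore does not show how well smaller changes, or changes in the low members, would be detected. All other steps ran in Python (version 3.11.15), on scipy (version 1.17.1), numpy (version 2.4.6) and pandas (version 2.3.3), with plots by matplotlib (version 3.10.9). Gene positions are those of GENCODE 29 on GRCh38, and promoters are those of RefSeq on GRCh38.p14.

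The members and the gene lists were chosen with earlier results of these data known. Members were named in full where the mean was at least 1 FPKM, or where the adjusted p was under 0.05, with or without a replicate block, or where, at a mean of at least 0.1 FPKM, the groups did not overlap and the absolute log2 fold change was at least 0.5. Other members are given by reads or ranges. The results of 2 marker genes are not reported here. Of the wider release and peptide lists, the 3 genes with the smallest p and the 3 with the highest mean were named, along with all genes at 0 in every library among the peptides. As 15 alternatives, the pseudocount was set to 1 or 0.01, the filter was dropped or raised to a mean of 1 FPKM, and the fit was repeated with rescaling to TPM, quantile normalization, median centring, no variance trend, a replicate block, each library's length trend removed (lowess, span 0.3), voom weights on the solved reads where a gene had 10 or more over the 4 libraries, and each library left out in turn.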

Additional observations from a re-analysis of the deposited data

How the results depend on the processing

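The replicate numbers in the sample titles were not taken to pair the libraries, since there are only 2 numbers and nothing states what they share. Same-numbered libraries correlated at r = 0.035 in their deviations from the group means, and at 0.058 and 0.101 in genes with a mean of at least 1 and 10 FPKM. With these numbers as a replicate block, limma called 64 genes in place of 30, 0 members in place of 0 and 1 peptide precursor, ADM (adjusted p = 0.0143), in place of 0. The number of genes called was 16 with quantile normalization, 51 with voom on the reads, and 0 with no filter (1069 at an unadjusted p under 0.05) or no variance trend (933). Leaving out 1 library gave 2 to 12 genes, the fewest without PBS replicate 1, and 0 members. Of the members, 1 was called with voom on the reads, SYT7, and 0 under the other alternatives. The wider release list had 0 calls under every alternative. ADM was also called with a minimum mean of 1 FPKM (1 peptide precursor, adjusted p = 0.0335), after rescaling to TPM (0.0479) and with the length trend removed (0.0371), while its adjusted p reached 0.687 without PBS replicate 2.

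The members' median log2 fold change of -0.051, over 18 members, was -0.087 in TPM, over 26 members, where the median of all genes was -0.070. With voom on the reads it was -0.15 over 32 members, where the median of all genes was -0.026. Leaving out 1 library gave -0.12 (without PBS replicate 2) to -0.036. Of 193 values for named members under the 15 alternatives, 174 kept their direction and side of the threshold, 18 changed sign and 1 became significant. The 18 sign changes were in 8 members, PAM, STX1A, UNC13B, RAB3D, CADPS2, CPE, VAMP2 and RAB3A. PAM was at 0.022 with median centring and 0.031 with the length trend removed, STX1A at -0.0016 and UNC13B at -0.039 in TPM, RAB3D at 0.020 and CADPS2 at 0.012 with quantile normalization, and CADPS2 at 0.0067 with the length trend removed. Leaving out 1 library gave CPE values of -0.61 to 0.11 on the log2 scale, with ranges from -0.052 to 0.043 for PAM, from -0.078 to 0.0018 for VAMP2, from -0.00077 to 0.091 for STX1A, from -0.067 to 0.012 for RAB3A, from -0.22 to 0.092 for RAB3D, from -0.049 to 0.065 for UNC13B and from -0.13 to 0.044 for CADPS2. SCG5 (0.47 to 1.02), PCSK1N (-1.85 to -1.13), SYN2 (-0.38 to -0.14), SYT7 (-0.83 to -0.47) and RAB3B (-0.39 to -0.23) kept their signs. For these genes that was fixed in advance, since their groups did not overlap and leaving out a library cannot then change the sign. The cause of the sign changes was not tested, and all 8 members that showed them had a mean of at least 1 FPKM. Apart from these, with 2 libraries a group and 0 to 14 reads on most low members, counting error was large in the low members.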
